A study of Drosophila melanogaster with 3 samples.

Results

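Of the 9766 reproducible ChIP-seq peaks of foxo-eGFP on the main chromosome arms of Drosophila melanogaster larvae, 395 (4.04%) lay at the start of a gene that makes no protein and at the start of no gene that does. A peak belonged here when its summit, the position of highest signal, was within 1000 bp of an annotated start of a noncoding gene and of no protein-coding start. Of 831 summits near a noncoding start, 436 also lay near a protein-coding start and were left out. The measurement was chromatin immunoprecipitation sequencing (ChIP-seq) with an antibody against GFP, in the strain foxo-MiMIC-GFP, where an eGFP exon inserted in an intron of foxo makes the endogenous gene encode a foxo-eGFP fusion. Chromatin came from whole larvae of the third instar at the wandering stage, males and females pooled, so a peak cannot be assigned to a tissue. The study has 3 biological replicates, which form 1 group, and no input or untagged library was analysed here. The labels name 1 line and do not say whether the untagged foxo protein was also present. Sequencing depth is unknown from peak lists.

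Foxo is a forkhead transcription factor that insulin signalling keeps out of the nucleus; when nutrients are scarce it enters the nucleus and switches on genes of metabolism, stress resistance and growth restraint. The genes that surround these peaks differ in how they are made and what they do. Long noncoding RNAs (lncRNAs) and most microRNA (miRNA) precursors are transcribed by RNA polymerase II, and miRNAs are cut from hairpins and repress mRNAs that match their seed. Transfer RNAs (tRNAs) and the 7SK RNA are made by RNA polymerase III, most spliceosomal small nuclear RNAs (snRNAs) by polymerase II, and small nucleolar RNAs (snoRNAs) guide the modification of other RNAs and are often cut out of introns. The annotated start of a miRNA hairpin, and of an snoRNA held in an intron, is the start of the processed RNA and not of the transcript that carries it.

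Sequences at the summits show which letters the peaks carried. Each window below holds the summit and 100 bp on either side of it, on the + strand of dm6 and was read from the RefSeq copy of that assembly. The first set has the forkhead core (GTAAACA, with A also allowed as the first letter and T as the sixth, on either strand) in capitals, and shows 3 high peaks that carried it together with the highest peak at a tRNA gene.
CR44619, 537 bp upstream, chrX:12751230-12751430: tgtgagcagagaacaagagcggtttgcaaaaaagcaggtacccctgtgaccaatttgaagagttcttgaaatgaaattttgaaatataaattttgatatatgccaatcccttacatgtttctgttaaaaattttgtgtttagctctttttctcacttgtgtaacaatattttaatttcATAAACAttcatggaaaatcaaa
CR43287, 775 bp upstream, chrX:7706900-7707100: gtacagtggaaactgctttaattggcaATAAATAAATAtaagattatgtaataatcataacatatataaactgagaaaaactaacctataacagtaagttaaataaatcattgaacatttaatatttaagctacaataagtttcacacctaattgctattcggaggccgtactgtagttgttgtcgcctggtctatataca
CR45804, 662 bp upstream, chr3L:9693059-9693259: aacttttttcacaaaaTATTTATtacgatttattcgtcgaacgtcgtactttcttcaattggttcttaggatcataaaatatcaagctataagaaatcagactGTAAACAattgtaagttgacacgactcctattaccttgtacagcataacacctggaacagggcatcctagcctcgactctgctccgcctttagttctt
tRNA:Gln-TTG-2-1, 194 bp upstream, chrX:3427617-3427817: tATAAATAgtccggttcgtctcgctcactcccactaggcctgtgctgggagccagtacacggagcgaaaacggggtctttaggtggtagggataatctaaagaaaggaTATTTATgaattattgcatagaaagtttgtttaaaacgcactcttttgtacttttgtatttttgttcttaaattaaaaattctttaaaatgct
The second set has in capitals the word TACACTG and its reverse complement CAGTGTA, in 3 of the 5 peaks with this word among the 10 highest at noncoding starts.
CR46035, 700 bp downstream, chr3R:17704295-17704495: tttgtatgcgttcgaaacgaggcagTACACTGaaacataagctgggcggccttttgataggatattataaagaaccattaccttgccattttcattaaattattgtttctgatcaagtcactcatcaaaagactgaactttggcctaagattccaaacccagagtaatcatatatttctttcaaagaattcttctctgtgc
CR42794, 586 bp upstream, chrX:5696437-5696637: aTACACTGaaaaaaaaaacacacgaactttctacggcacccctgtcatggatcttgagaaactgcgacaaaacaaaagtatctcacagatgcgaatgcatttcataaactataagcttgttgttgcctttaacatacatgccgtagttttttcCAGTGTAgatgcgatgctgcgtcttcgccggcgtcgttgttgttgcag
CR44676, 378 bp downstream, chr3L:19560712-19560912: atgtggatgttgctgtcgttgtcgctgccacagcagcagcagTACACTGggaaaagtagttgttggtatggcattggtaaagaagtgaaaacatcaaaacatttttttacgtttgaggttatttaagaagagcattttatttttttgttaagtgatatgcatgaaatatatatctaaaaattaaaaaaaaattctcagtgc
Another set has the transcribed bases of the snRNA gene in capitals, and shows summits that lay inside the short gene itself.
snRNA:U4:39B, chr2L:21215022-21215222: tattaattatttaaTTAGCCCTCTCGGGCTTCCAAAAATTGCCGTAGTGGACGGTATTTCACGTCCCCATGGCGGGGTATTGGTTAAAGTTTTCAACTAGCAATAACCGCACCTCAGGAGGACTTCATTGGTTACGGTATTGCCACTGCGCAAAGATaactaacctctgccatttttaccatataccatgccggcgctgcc
snRNA:U1:95Ca, chr3R:23859529-23859729: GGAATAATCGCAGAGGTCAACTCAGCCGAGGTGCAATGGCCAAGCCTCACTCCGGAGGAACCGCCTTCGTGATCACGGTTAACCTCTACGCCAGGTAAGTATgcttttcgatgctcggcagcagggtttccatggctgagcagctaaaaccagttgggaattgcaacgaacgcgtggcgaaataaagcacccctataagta
The last window held the DRE word TATCGATA, in capitals, which was found at 1 of the 395 summits.
CR43838, chrX:20760553-20760753: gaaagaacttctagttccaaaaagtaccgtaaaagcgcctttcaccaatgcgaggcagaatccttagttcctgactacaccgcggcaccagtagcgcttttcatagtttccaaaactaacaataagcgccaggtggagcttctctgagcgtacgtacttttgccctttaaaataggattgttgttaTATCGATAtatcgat

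Among miRNA hairpins with a start within 1000 bp of such a summit, 21 were found, and RefSeq mature sequences were read for 17 of them. The sequences of the better known ones follow, with the seed (bases 2 to 8) in capitals and the arm of the hairpin named. The hairpins mir-2a-1 and mir-2b-2 share the seed AUCACAG and are cut from the same intron of spi, the gene of an EGF receptor ligand. No other seed recurred among the 17 hairpins read. Seeds of the remaining hairpins were not read, so whether they share this or another seed is unknown.
mir-279, 3' arm: uGACUAGAuccacacucauuaa
mir-275, 3' arm: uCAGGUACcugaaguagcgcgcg
mir-305, 5' arm: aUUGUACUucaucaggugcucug
mir-34, 5' arm: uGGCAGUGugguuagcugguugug
mir-277, 3' arm: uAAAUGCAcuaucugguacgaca
mir-2a-1, 3' arm: uAUCACAGccagcuuugaugagc
mir-2b-2, 3' arm: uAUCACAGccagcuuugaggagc
mir-282, 5' arm: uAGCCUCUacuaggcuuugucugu

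By class of the nearest noncoding start, 313 of the 395 peaks (79.2%) belonged to lncRNAs. tRNA genes had 27, miRNA hairpins 18, antisense RNAs 13, snoRNAs 9, snRNAs 7, pseudogenes 6 and other noncoding RNAs 2, while ribosomal RNA genes had none. For 11 peaks, starts of more than 1 class lay within the window, and the nearest start decided the class. The nearest genes numbered 325, and 58 of them had more than 1 peak (128 peaks in all, at most 3 per gene). Of the 395 peaks, 18 shared their interval with another optimal peak, so their summits are neighbouring maxima of 1 region. Much the same classes came out when each replicate's own 9766 highest peaks were sorted by the same rule: lncRNA peaks numbered 303, 316 and 324 in replicates 1, 2 and 3, tRNA peaks 32, 30 and 25, miRNA peaks 18, 16 and 16, and snRNA peaks 8, 6 and 5. All noncoding-only peaks together numbered 393, 401 and 403 in replicates 1, 2 and 3, a share of 4.09% ± 0.0542 (SD, n = 3).

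Noncoding starts covered little of the genome, and the classes differed in how densely they were occupied. Bases within 1000 bp of a noncoding start and of no protein-coding start made up 3.33% of the arms and carried 88.5 optimal peaks per megabase. Bases near protein-coding starts carried 169 per megabase, and bases away from any start 46.9. Within the noncoding territory, bases closest to an snRNA start carried 178 per megabase, lncRNA 111, tRNA 97.7, miRNA 57.7, snoRNA 56.8, antisense RNA 29.7 and pseudogene 18.4. The snRNA figure rests on 7 peaks. These densities describe the optimal list and have no replicate test.

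Counted by gene, 753 of 3738 noncoding genes (20.1%) had a start within 1000 bp of an optimal summit, against 4569 of 13945 protein-coding genes (32.8%). In the replicates' own top peaks the shares were 20.4%, 19.4% and 19.7% for noncoding genes and 35.6%, 31.5% and 33.2% for protein-coding genes, so the groups did not overlap. Protein-coding genes had 1.41 distinct starts on average and noncoding genes 1.17, so protein-coding genes had more windows, and the part of this in the difference was not tested. Only 375 of the 753 noncoding genes had a peak at noncoding starts only. The snoRNA share was 29.7% of 273 genes in the optimal list (95% interval 24.6 to 35.3) and 30.0%, 23.4% and 26.4% in replicates 1, 2 and 3, and 67 of its 81 genes were reached through a peak that also lay near a protein-coding start. Antisense RNAs were alike in this, with 128 of 503 genes (25.4%; 27.4%, 24.5% and 27.6% in replicates 1, 2 and 3) and 120 of the 128 through such shared peaks. The lncRNA share was 20.7% of 1944 genes, tRNA 22.4% of 290, snRNA 28.1% of 32 (interval 15.6 to 45.4), miRNA 13.5% of 260 and pseudogene 7.46% of 268. None of 99 ribosomal RNA genes on the arms had one, which would allow a share of up to 3.03% if genes counted as independent. Only 39905 bases (0.894% of the noncoding territory) lay closest to their starts, so their windows overlapped and the genes are not independent.

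**Figure D1:**
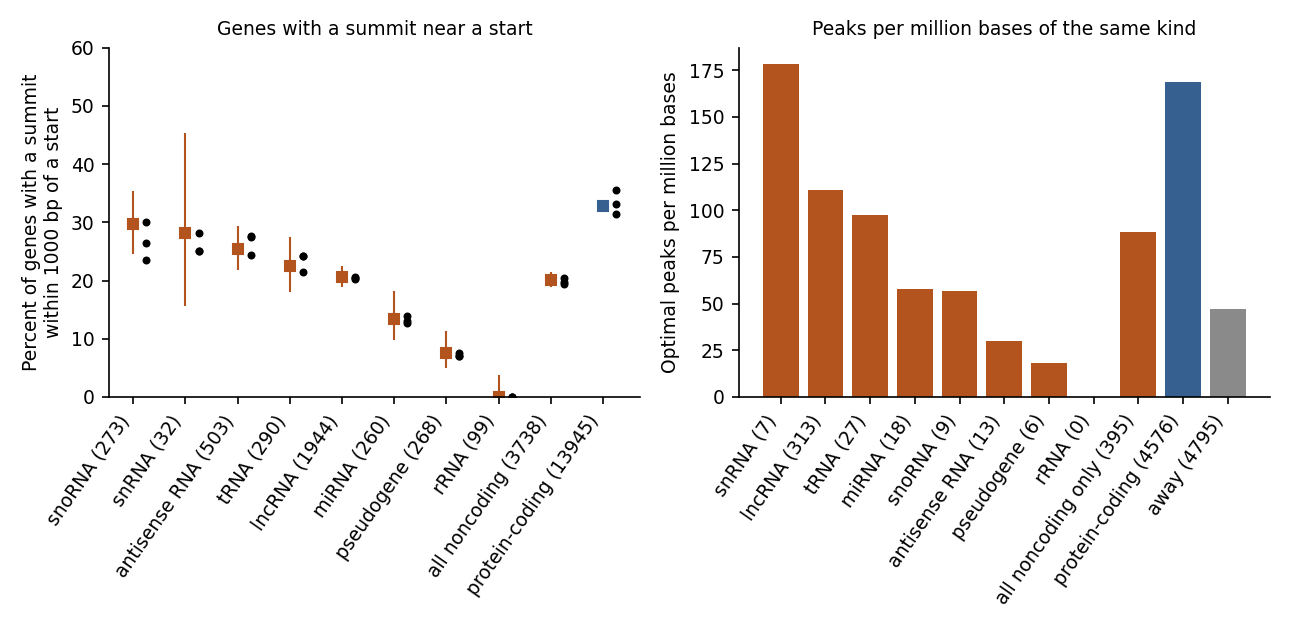
Left, percent of genes of each class (number of genes in brackets) with a start near an optimal summit (within 1000 bp); squares are the optimal list with Wilson 95% intervals and dots the 3 replicates. Right, optimal peaks per megabase of each kind (number of peaks in brackets); lncRNA bases carried 111 and protein-coding starts 169.

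The strongest noncoding-only peak lay 114 bp upstream of the lncRNA gene CR31044 (FBgn0051044, chr3R:29214562-29219667, + strand), the gene whose transcript holds the hairpins of mir-279 and mir-996, miRNAs known for their role in the choice of sensory neuron fate. It had the signal 5895, the authors' own peak height on a scale whose normalization no source at hand states, and it ranked 13 in the optimal list. It ranked 15, 12 and 11 in replicates 1, 2 and 3. The next peak was 700 bp inside CR46035 (chr3R:17703695-17705581), an lncRNA in an intron of osa, which encodes a subunit of the Brahma chromatin remodelling complex. Its signal was 5560 and its ranks were 19, 19 and 15 in replicates 1, 2 and 3. A neighbouring lncRNA in the same intron, CR46036, picked out after its value was seen, had a peak of signal 2705 that ranked 114, 106 and 113, close to one another. Each of these 2 genes had 3 noncoding-only peaks.

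Several of the strongest peaks lay inside introns of metabolic and regulatory genes, at starts of other transcripts. The antisense RNA CR44512 (chrX:19667018-19667746, - strand) had a peak 856 bp upstream, in an intron of Zw, the gene of glucose-6-phosphate dehydrogenase and thus the entry to the pentose phosphate pathway. Its signal was 4853 and it ranked 37, 22 and 45 in replicates 1, 2 and 3. That summit also lay 1120 bp from a start of Zw itself, just outside the excluded window of 1000 bp. CR46102, in an intron of the lipophorin receptor gene LpR2, had signal 2941 and ranks of 87, 108 and 82. CR45997, in an intron of the splicing factor gene mbl, had signal 2858 and ranks of 104, 101 and 92. CR43287, in an intron of the forkhead gene CHES-1-like, had signal 2821 and ranks of 96, 96 and 178. The lncRNA CR44619 on the X had a pair of peaks on either side of its start, at 497 bp downstream with signal 4408 and at 537 bp upstream with signal 4221. They ranked 52, 32 and 35, and 53, 50 and 34 in replicates 1, 2 and 3. The last of the 10 highest peaks were at CR42794 (signal 2763, ranks 160, 90 and 163) and CR44676 (signal 2730, ranks 140, 99 and 147). All 10 stood among the top peaks of each replicate.

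**Figure D2:**
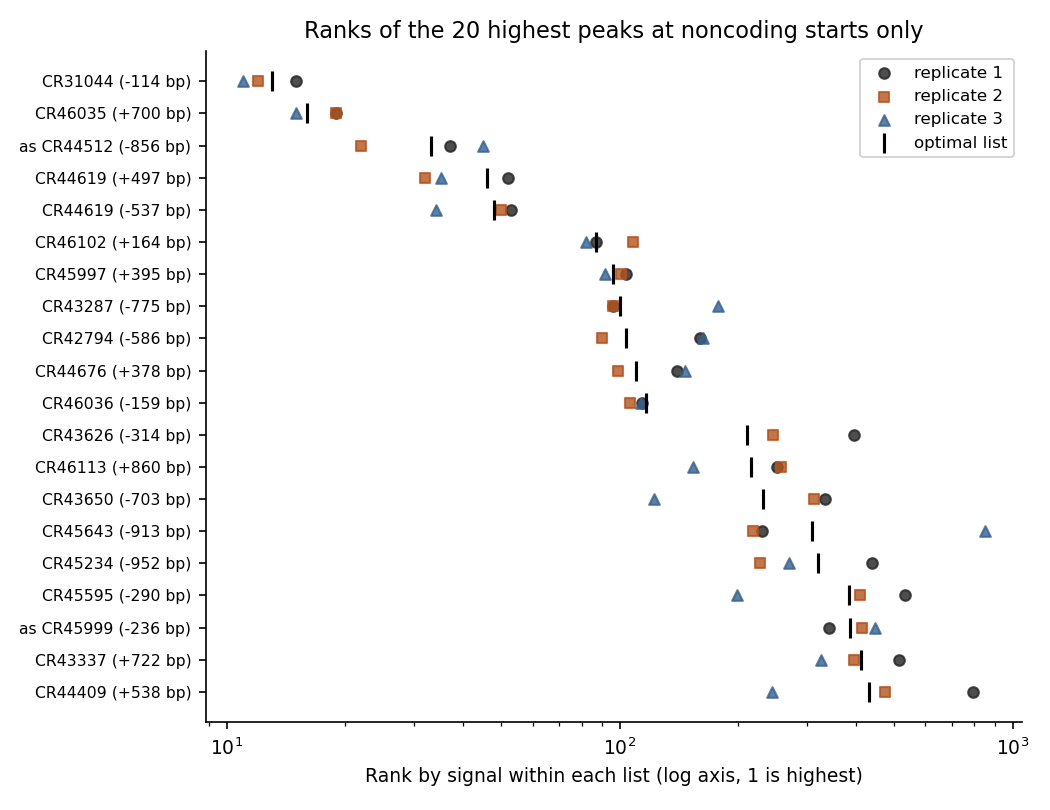
Rank by signal, within each replicate's list and within the optimal list, of the 20 highest noncoding-only peaks (log axis, 1 is highest; summit position from the start in brackets). The peak at CR31044 ranked 15, 12 and 11 in the replicates, and CR43626 has no symbol for replicate 3, where no summit lay within 100 bp.

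Across all 395 peaks the median signal was 327, with quartiles of 211 and 575, and 50 peaks exceeded 1000. Peaks near protein-coding starts had a median of 366 and peaks away from starts 284. Between classes the medians were 375 at snRNAs, 352 at lncRNAs, 339 at snoRNAs, 273 at miRNAs, 263 at antisense RNAs, 245 at tRNAs and 244 at pseudogenes, and the 2 peaks at other noncoding RNAs had 1165 and 184. The highest values belonged to lncRNAs and 1 antisense RNA, whereas the strongest tRNA peak had 1283, the strongest snoRNA peak 624 and the strongest snRNA peak 551. Ranked within each replicate, noncoding-only peaks had a median percentile of 53.0 ± 2.38 against 55.4 ± 2.42 for peaks near protein-coding starts (SD, n = 3 each). The difference of -2.40 percentile points was positive in 1 of 3 replicates and did not exceed its own spread (SD 4.62, exact sign-flip permutation test over replicates, two-sided, p = 0.5). Its size depended on the list: it was -17.2 points over all deposited regions and -4.48 in the stronger 0.5 of each replicate's top peaks, lower in all 3 replicates in both (exact sign-flip permutation test, p = 0.25). Against peaks away from starts, at 44.98 ± 1.65, noncoding-only peaks ranked 8.02 points higher, in 3 of 3 replicates (exact sign-flip permutation test, two-sided, p = 0.25). With 3 replicates 0.25 is the smallest p this test can give, so no comparison here can pass 0.05.

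**Figure D3:**
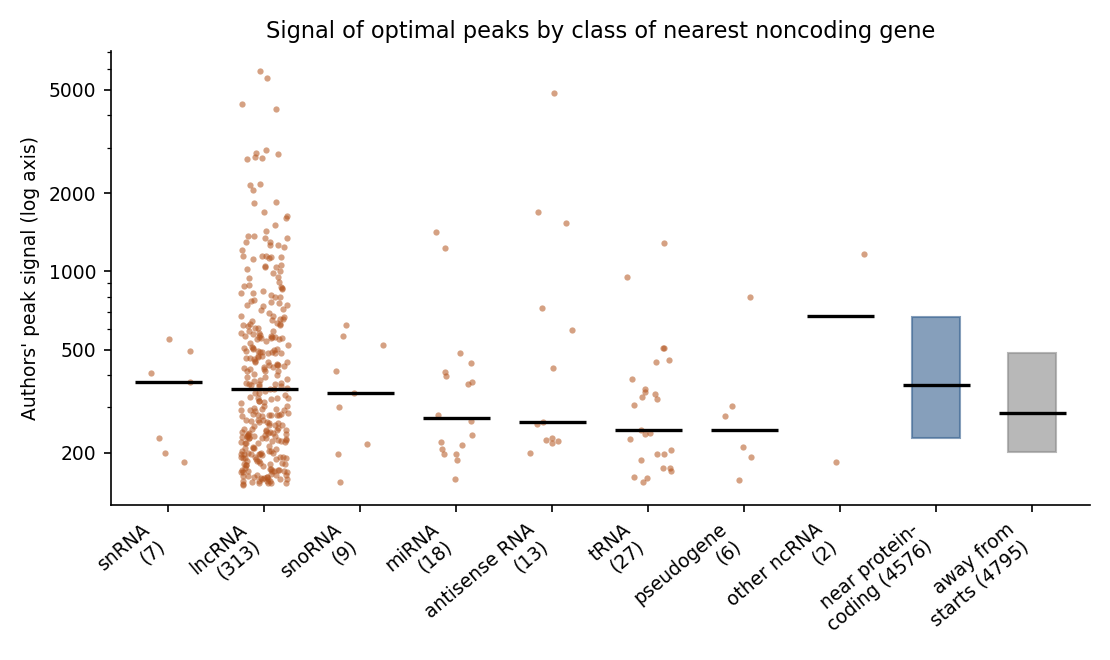
Authors' signal (log axis) of each noncoding-only peak by class of the nearest noncoding gene, number of peaks in brackets; black lines are medians. Boxes at the right span the quartiles of peaks near protein-coding starts (median 366) and away from starts (median 284).

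Replicates found noncoding-only peaks about as often as the rest of the list. Of the 395 peaks, 260 (65.8%, Wilson 95% interval 61.0 to 70.3) had a summit within 100 bp among the top peaks of all 3 replicates, against 65.2% of all optimal peaks, 66.2% near protein-coding starts and 64.1% away from starts. Another 95 were found in 2 replicates, 34 in 1 and 6 in none. Nearly all of them overlapped a deposited region of each replicate (393, 394 and 392 of the 395 in replicates 1, 2 and 3), so nearly all of those missing from a top list had a region there at a lower rank or with a shifted summit. By class, 208 of 313 lncRNA peaks, 17 of 27 tRNA peaks, 11 of 18 miRNA peaks, 10 of 13 antisense peaks, 6 of 9 snoRNA peaks and 4 of 7 snRNA peaks were found in all 3. The optimal list was derived from these same libraries, and intervals cover counting error only.

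Noncoding-only summits lay less often in front of the start than summits near protein-coding starts did. Upstream of the nearest start lay 48.9% of them, against 72.9% of peaks near protein-coding starts. In the replicates the upstream share was 51.1%, 49.1% and 49.9% for noncoding-only peaks and 71.8%, 74.1% and 69.1% for protein-coding ones. The mean difference was -21.6 percentage points (SD 2.96, lower in 3 of 3 replicates, exact sign-flip permutation test, two-sided, p = 0.25). Within 250 bp of the start lay 33.5% ± 2.05 of noncoding-only peaks and 63.0% ± 2.91 of protein-coding ones (SD, n = 3 each), and again the replicates did not overlap. The 300 bp upstream of the start held 25.95%, 22.4% and 23.1% of noncoding-only summits in replicates 1, 2 and 3, against 55.5%, 54.0% and 50.5% of protein-coding ones. These 300 bp made up 16.8% of bases near noncoding starts only and 16.9% of bases near protein-coding starts. For scale, of all bases in the noncoding-only territory, 48.9% lay upstream of the nearest start and 28.8% within 250 bp of it, and of bases near protein-coding starts 42.7% and 30.9%. Around lncRNA starts, 77 summits lay in the 300 bp upstream and 15 in the 100 bp downstream. Another 20 lay between 100 and 300 bp downstream and 109 between 300 and 800 bp downstream, ranges that differ in width. In bins of 100 bp the highest count was 31 upstream, at 100 to 200 bp, and 27 downstream, at 600 to 700 bp. Of the 313 lncRNA peaks 119 lay inside the gene.

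**Figure D4:**
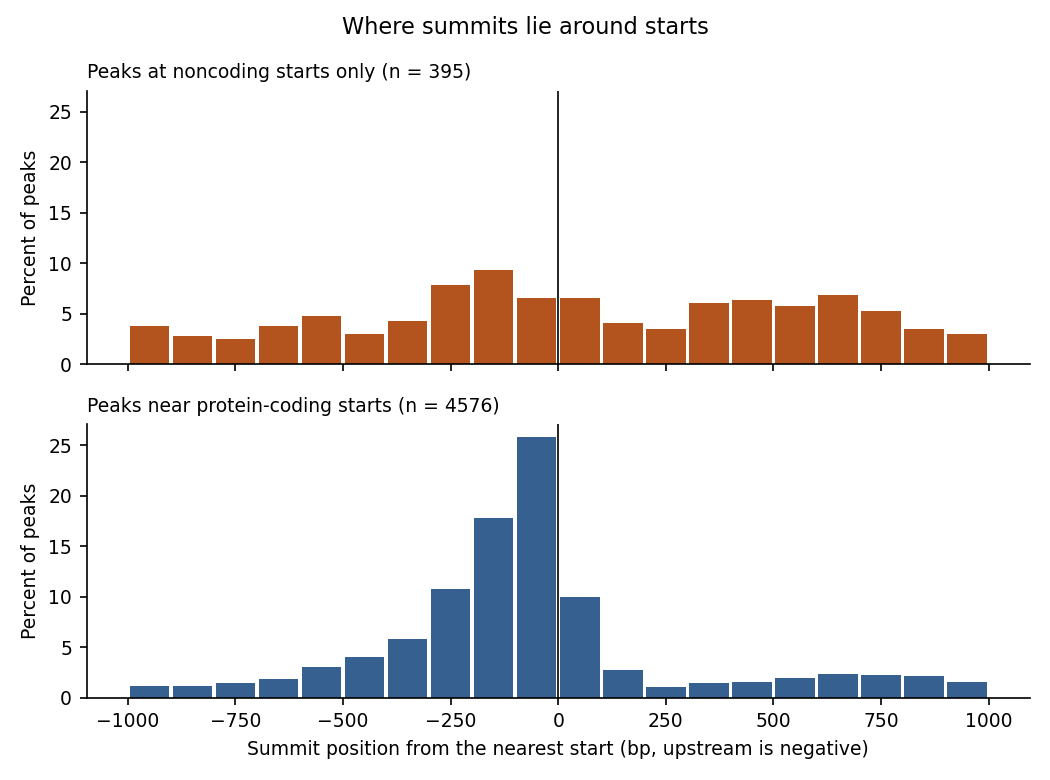
Percent of peaks by position of the summit from the nearest start, in bins of 100 bp, for 395 noncoding-only peaks (above) and 4576 peaks near protein-coding starts (below). The highest noncoding-only bin, 100 to 200 bp upstream, held 9.37% of peaks, and the highest protein-coding bin, within 100 bp upstream, 25.8%.

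Small RNA classes differed in where their summits lay. All 7 snRNA summits lay inside the gene, at 1 to 165 bp from its start. For tRNAs 17 of 27 summits were upstream, and 2 lay within 100 bp of the start. Among antisense RNAs 12 of 13 summits were upstream, and for 9 of the 13 a protein-coding start lay between 1000 and 2000 bp away. That was so for 98 of the 395 peaks (24.8%), which border on the excluded window. Near the limits signals varied widely. The member nearest to a protein-coding start, at 1003 bp, had signal 280 and the next, at 1011 bp, 2173, while peaks that were left out at 982 and 983 bp had 262 and 510. At the other limit, members 982, 983 and 984 bp from their start had signals of 890, 172 and 225, and peaks just beyond it, at 1001, 1005 and 1007 bp, had 567, 1561 and 183.

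Of the summits, 265 (67.1%) were intergenic and 123 (31.1%) in introns of protein-coding genes, 7 lay in untranslated regions and none in a coding exon. Intronic shares were 26.2% at lncRNAs, 44.4% at tRNAs and 61.5% at antisense RNAs, and 9 of 18 at miRNAs. Of the 18 miRNA peaks, 10 lay in a host gene on the same strand as the hairpin. Chromosome arm 4 had none of the 395 peaks, which allows a share of up to 0.759%. It held 0.219% of peaks near protein-coding starts and 0.104% of peaks away from starts, so the count of 0 shows no difference. The X had 51 (12.9%), against 19.3% of peaks near protein-coding starts and 20.6% of peaks away from starts. How the bases near noncoding starts divide among the arms was not counted.

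MicroRNA genes were reached in 2 ways, at hairpins and at the starts of lncRNA genes that hold hairpins. The strongest peak at a hairpin start lay 371 bp downstream of mir-9377, in an intron of Tis11, which encodes an mRNA decay factor, and had signal 1413 and ranks of 613, 470 and 732 in replicates 1, 2 and 3. A peak of signal 1228, with ranks of 667, 657 and 1115, lay 435 bp upstream of mir-275 and close to mir-305. A second peak, of signal 943, stood 217 bp upstream of the lncRNA CR43857, whose transcript holds mir-275; it ranked 731 and 1112 in replicates 1 and 2 and had no summit within 100 bp in replicate 3. The hairpins of mir-34, studied for its effect on ageing, and mir-277, which acts on branched-chain amino acid breakdown, shared a peak of signal 394 between them, with ranks of 2917, 5436 and 6270.

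The hairpins mir-2a-1 and mir-2b-2 in the spi intron shared a peak of signal 411 that ranked 3662, 3808 and 4132, and mir-92b, in the 3' untranslated region of jigr1, had one of signal 444 that ranked 3786, 3357 and 3218. A peak of signal 487 lay 909 bp downstream of mir-308 (ranks 2180, 3959 and 3798). The mir-279 hairpin, 1 of the 2 within CR31044, had a weak peak of its own (198, ranks 7458, 8445 and 7378).

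Of 34 lncRNA genes that hold a miRNA hairpin on their strand, 12 (35.3%, interval 21.5 to 52.1) had an optimal summit near a start, against 20.7% of all lncRNAs. In replicates 1, 2 and 3 the shares were 35.3%, 32.4% and 38.2%, against 20.4%, 20.6% and 20.2%. These host genes had 1.68 starts and a median length of 6116 bp, against 1.06 starts and 662 bp for all lncRNAs, and the part of either in the difference was not tested. The list was drawn up with the values known. Beside CR31044, the strongest were CR43626, which holds mir-282 (signal 2173), CR43650, which holds mir-8 (2051 and 1047 at its 2 peaks), and CR45916, which holds mir-9a (1112). The CR43626 peak ranked 394 and 246 in replicates 1 and 2 and had no summit within 100 bp in replicate 3. Its summit lay in the 3' untranslated region of CG43389, 1011 bp from a start of that protein-coding gene. The mir-8 RNA is known to promote growth of the larva through the fat body, and mir-9a to restrain the formation of sensory precursors. The mir-8 host ranked 334, 313 and 122 in replicates 1, 2 and 3 at its stronger peak and 1010, 1141 and 786 at the other. CR46006, which holds mir-276a, had signal 651 and ranks of 2356, 1628 and 2683. Weaker peaks stood at CR43651, which holds mir-14, a regulator of fat metabolism (signal 372, ranks 5434, 5194 and 2655), at let7C, the precursor of the developmental timing miRNA let-7 (239, ranks 8806, 7385 and 4291), and at CR43334, the precursor of the growth-promoting bantam (189, ranks 8539, 9785 and 7346). The bantam and let-7 hairpins themselves, which lie toward the far end of these genes, had no summit within 1000 bp.

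Among lncRNAs of known function, Hsromega, the heat shock RNA that organises omega speckles, had 3 noncoding-only peaks. The strongest lay inside the annotated gene, 226 bp upstream of the nearest of its starts, which is not the first. It had signal 737 and ranked 1547, 1608 and 2479 in replicates 1, 2 and 3, and the others had signals of 199 and 153. The flam locus, which gives rise to piRNAs that silence transposons in the ovary, had a peak of signal 447, 167 bp upstream, with ranks of 3316, 3465 and 4381. Of the dosage compensation RNAs, roX1 had 2 weak peaks (278 and 158, the stronger ranking 6532, 7122 and 4190) and roX2 had none. No optimal summit lay within 1000 bp of a start of bxd or iab8, lncRNAs of the bithorax complex. Of 52 matched genes on the list of known noncoding RNAs, 19 had an optimal summit near a start and 18 a noncoding-only peak. That list was made with earlier results of these data known, and its share gives no support to a pattern.

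Among antisense RNAs other than CR44512, the strongest peaks were at CR45999 (signal 1687, ranks 341, 413 and 447 in replicates 1, 2 and 3) and at CR45804, in an intron of Prps, which encodes the enzyme that makes the sugar phosphate precursor of nucleotides (1531, ranks 550, 557 and 297). CR45134 lay in an intron of whd, the gene of carnitine palmitoyltransferase, which carries fatty acids into mitochondria, and had a peak of signal 592 with ranks of 3263, 2592 and 1749. CR43469 had one of signal 721 (ranks 1526, 2091 and 1818). The summits at CR45804 and CR45134 lay 1298 bp from a start of Prps and 1060 bp from a start of whd, not far outside the excluded window. The 6 pseudogene peaks fell at 3 genes, and CR42490 had 3 of them, the strongest of signal 798 with ranks of 2348, 1747 and 941.

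At tRNA genes the strongest peaks were at tRNA:Gln-TTG-2-1, 194 bp upstream in an intron of CG12535 (signal 1283, ranks 608, 616 and 958 in replicates 1, 2 and 3), and at tRNA:Lys-TTT-1-1, 347 bp downstream in an intron of Btk, a tyrosine kinase gene (signal 954, ranks 1237, 1003 and 927). The other 25 had signals of 507 or less, the highest at tRNA:Thr-AGT-1-1 in an intron of tai, a nuclear receptor coactivator gene (ranks 3124, 3299 and 2632), and at tRNA:Glu-CTC-3-1 (505, ranks 2941, 2563 and 3130). Of the 27 tRNA peaks, 12 lay in introns of protein-coding genes. Counted by gene, 49 of 183 tRNA genes with another tRNA start within 1000 bp had a summit (26.8%, interval 20.9 to 33.6). Of 107 that stand alone, 16 had one (15.0%, interval 9.42 to 22.9). These counts include peaks that also lay near protein-coding starts, and 44 of the 65 genes were at noncoding-only peaks. Clustered genes share peaks, so these genes are not independent. By amino acid, on the same count, the higher shares were at 9 of 17 alanine, 3 of 6 initiator methionine and 3 of 7 cysteine tRNA genes. Next came 2 of 5 histidine and 6 of 17 proline genes, against 22.4% of all tRNA genes. Lower shares included 0 of 10 asparagine, 1 of 12 glutamine and 1 of 11 isoleucine genes. At noncoding-only peaks the counts were 6 alanine, 3 initiator methionine, 3 cysteine, 0 histidine and 5 proline genes. Many tRNA genes, like the U1 and U4 genes, have near-identical copies, and how reads that match several copies were placed is stated in no source at hand, so peaks on such copies are uncertain.

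Among spliceosomal and related RNAs, peaks lay on the snRNA genes U4:39B (signal 551, ranks 2706, 2611 and 2740 in replicates 1, 2 and 3) and U1:95Ca (496, ranks 3076, 4041 and 2613). The U1 and U4 RNAs are parts of the major spliceosome. The gene of 7SK, an RNA that holds the elongation factor P-TEFb inactive, had a peak of signal 405 on its copy 7SKa (ranks 3431, 4139 and 3894) and none on 7SKb. Weaker peaks were found at U12 of the minor spliceosome (227), at U1:21D (200) and at LU (185), the last of which was named after its value was seen. These last 3 fell outside the top 9766 of 1 replicate each, so 4 of the 7 stood in all 3 top lists. No optimal summit lay within 1000 bp of the U6 genes at 96A, the U2 gene at 34AB or the RNase P RNA gene, and RNase MRP RNA, which acts in ribosomal RNA maturation, had a weak one (184). Mean GC content around the 7 snRNA summits was 49.3%, against 35.9% over all 395 peaks. Among snoRNAs, Me18S-G1358a had the strongest peak, 777 bp upstream in an intron of drn (signal 624, ranks 2740, 2492 and 1085). The snoRNA named 185 had a peak 40 bp upstream of its start (566, ranks 2221, 3170 and 2470). Starts of tRNA:Glu-TTC-1-4, tRNA:Glu-TTC-1-5 and tRNA:Glu-TTC-1-6 also lay within 1000 bp of that summit. Another stood by Or-ACA6 in an intron of egr, the gene of the fly tumour necrosis factor (520, ranks 2593, 3093 and 3611). The stable intronic RNA sisRNA:4, in an intron of the neural repressor gene dpn, had a peak of 1165 (ranks 985, 742 and 796).

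Promoter words that mark housekeeping genes were nearly absent from noncoding-only peaks. The DRE (TATCGATA), the word bound by the factor Dref, had its centre within 100 bp of 1 of the 395 summits (0.253%, Wilson 95% interval 0.0447 to 1.42), against 6.01% of peaks near protein-coding starts, 0.417% away from starts and 0.579% of tiles of the same length that cover the arms. In replicates 1, 2 and 3 it was found at 0%, 0.249% and 0% of noncoding-only peaks, against 6.50%, 5.91% and 5.42% of peaks near protein-coding starts. The counts of 0 allow shares of up to 0.763% in replicate 1 and 0.744% in replicate 3. The mean difference was -5.86 percentage points (SD 0.570, lower in 3 of 3 replicates, exact sign-flip permutation test, two-sided, p = 0.25). The 436 peaks near both kinds of start, which are counted among the protein-coding ones, carried it in 6.42% of cases. The Ohler 1 word (GGTCACAC) followed the same order, with 0.253% of noncoding-only peaks, 4.35% of protein-coding ones and 0.447% of tiles, and a replicate difference of -4.25 points (SD 0.696, lower in 3 of 3, exact sign-flip permutation test, p = 0.25). In tiles not chosen for peaks the DRE stood at 0.406% near noncoding starts only and 1.21% near protein-coding starts. The 1 peak with a DRE, at CR43838 on the X, and the 1 with Ohler 1, at the pseudogene CR31032, were weak, with signals of 233 and 277.

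The forkhead core was present at 33.2% of noncoding-only summits (131 of 395, interval 28.7 to 37.95), against 38.6% of protein-coding ones, 35.4% away from starts and 25.2% of tiles. It was found at 32.3%, 32.7% and 34.2% in replicates 1, 2 and 3, against 38.6%, 39.6% and 37.96% near protein-coding starts. All 3 differences were negative, -5.65 points on average (SD 1.71, exact sign-flip permutation test, two-sided, p = 0.25). The size of the difference moved with the settings, between -2.58 points with a window of 500 bp around starts and -11.0 points with words counted within 250 bp of the summit. The strict form GTAAACA stood at 4.30% of noncoding-only peaks, 6.73% of protein-coding ones and 3.94% of tiles. Tiles differ from the summits in base composition. Mean GC content was 35.9% at noncoding-only summits and 41.8% in tiles near noncoding starts only, where the core stood at 26.1%. The part of GC content in the gap between summits and tiles was not tested. By class the core was found at 107 of 313 lncRNA peaks (34.2%), 8 of 27 tRNA, 5 of 18 miRNA, 4 of 13 antisense and 3 of 9 snoRNA peaks, and at 0 of 7 snRNA peaks, which allows a share of up to 42.9%. Of the 10 highest peaks 2 carried it. A match of letters is a description and not a binding site, and its absence says nothing about foxo.

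**Figure D5:**
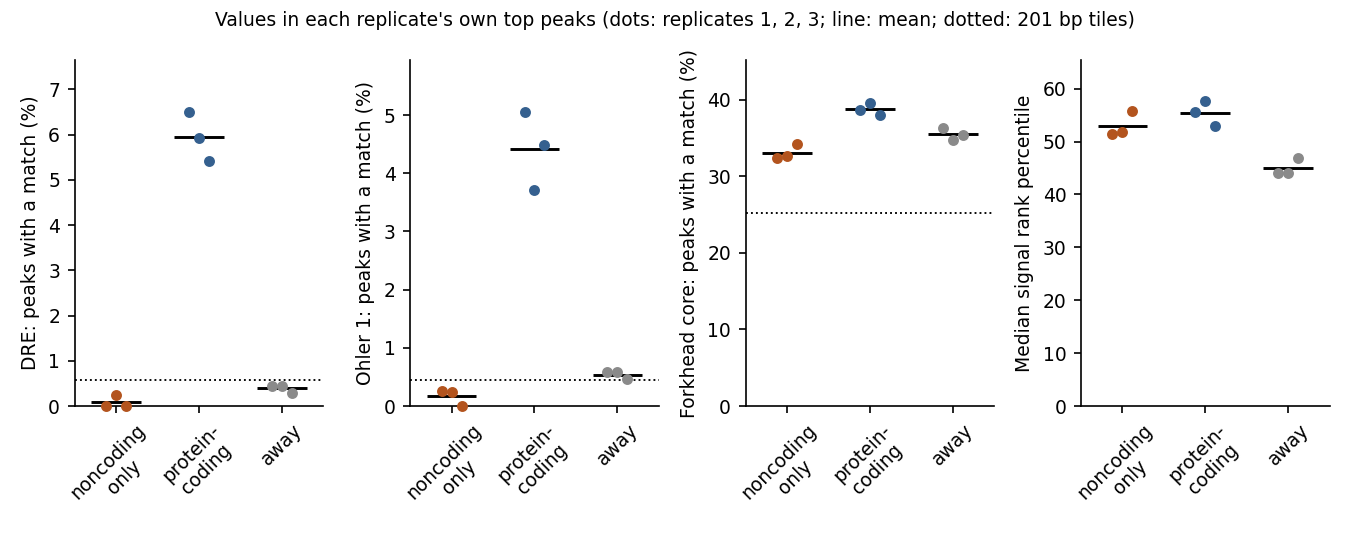
Share of peaks with a DRE, Ohler 1 or forkhead core match, and median rank percentile by signal, in noncoding-only peaks, peaks near protein-coding starts and peaks away from starts, each in the top peaks of replicates 1, 2 and 3 (dots; lines are means, dotted lines the share of tiles). The DRE averaged 0.0831% in noncoding-only peaks and 5.94% near protein-coding starts.

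Other words of the panel had closer shares. GAGAG, lower in 3 of 3 replicates, stood at 22.0% ± 1.18 of noncoding-only peaks and 24.9% ± 0.440 of peaks near protein-coding starts, TATAAA at 33.7% ± 1.93 and 34.2% ± 1.36, the word GATAA preceded by A or T at 27.7% ± 0.951 and 27.7% ± 0.195, and the heat shock word GAANNTTC, higher in 3 of 3 replicates, at 6.01% ± 0.177 and 5.81% ± 0.125 (SD, n = 3 each). The E-box CACGTG stood at 1.92% ± 0.500 against 2.41% ± 0.0350. The tRNA B box word GGTTCGA was higher in 3 of 3 replicates, at 2.17% ± 0.164 against 1.45% ± 0.0883, and it rested on 8 of the 395 optimal peaks, 1 of them nearest to a tRNA gene. In tiles the shares were 21.8% for GAGAG, 22.1% for TATAAA, 21.7% for the GATA word, 5.97% for the heat shock word, 2.41% for the E-box and 1.37% for the B box. The B box stood at 1.86% of tiles near noncoding starts only and 1.46% of tiles near protein-coding starts, the same order as at the peaks. GC content was 36.2% ± 0.463 in noncoding-only windows and 37.5% ± 0.730 in protein-coding ones, lower in 3 of 3 replicates, a direction that turned when the window was widened to 250 bp on either side (0.966 points higher). Tiles not chosen for peaks differed in the same direction, with 41.8% near noncoding starts only and 43.2% near protein-coding starts, so the lower GC content was not particular to the peaks. Among classes, 10 of 18 miRNA peaks held a GATA word (55.6%, interval 33.7 to 75.4), against 27.8% of all 395, a class singled out after its value was seen.

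A word outside the panel led when all words of 7 letters found in at least 25 of the 395 windows were ordered by their share relative to the tiles. TACACTG stood at 43 of the 395 summits (10.9%, interval 8.18 to 14.3), against 4.196% of peaks near protein-coding starts, 9.16% of peaks away from starts and 1.80% of tiles. In replicates 1, 2 and 3 it stood at 9.16%, 11.0% and 7.44% of noncoding-only peaks. Peaks near protein-coding starts had it at 4.10%, 4.21% and 3.92%, which did not overlap the noncoding-only values. Peaks away from starts had it at 9.06%, 9.03% and 7.52%, which did overlap them, so the word was not particular to noncoding starts. Of the 10 leading words, 8 held CACTG or its reverse complement. The strongest peaks carried TACACTG often, 5 of the 10 highest among them, and the second set of sequences shows 3 of these 5. It stood at 15.0% of the 100 highest noncoding-only peaks (interval 9.31 to 23.3) and 9.49% of the others (6.65 to 13.4), and at 16 of the 131 with a forkhead core. The word was chosen for its share in these windows, so the values are a description with no test.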

How the data were processed

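Peaks came from 3 ChIP-seq replicates of 1 group. Per the labels' protocols, chromatin was sonicated to 200 to 800 bp, and the authors deposited dm6 lists of 30000 regions per replicate, a pooled list and an optimal list of reproducible peaks. The aligner, the caller and the cutoff on the irreproducible discovery rate (IDR) were not given in the sources used here. Deposited lists give each peak's signal value, −log10 q-value and summit offset as the authors' caller made them. The −log10 q-value had the same top value, 4.25, in 91.0% of optimal peaks, so ranks used signal. All 9766 optimal peaks stood identically in the pooled list. Depth is unknown from such lists.

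Summits were assigned to Ensembl release 115 starts on 6 arms, transposable elements left out, with a window of 1000 bp. Each replicate was represented by its 9766 highest peaks. Replicates matched an optimal peak when a summit lay within 100 bp. Shares have Wilson 95% intervals, which cover counting error only. Groups were compared over replicates with an exact sign-flip permutation test. Scripts were tested on simulated data. Software was Python 3.11.15, numpy 2.4.6, pandas 2.3.3, scipy 1.17.1 and matplotlib 3.10.9. Named genes were those at the 10 strongest peaks, at up to the 5 strongest per class, and on a list of known noncoding RNAs; miRNA host genes and the carriers of rare words were named after their values were seen. The peaks and lists were chosen with earlier results of these data known. Lists on dm3 were not used, and no sequence from 2R is printed. The sequence and values of 1 snRNA gene are not reported here.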

Additional observations from a re-analysis of the deposited data

How the results depend on the processing

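Of 82 alternative values, 23 counts, shares or medians moved beyond a set limit and 2 differences changed sign. Only the differences from protein-coding peaks can change sign. The sign changed for GC content, noncoding-only minus protein-coding peaks, which was 0.110 points with all deposited regions and 0.966 points with 250 bp either side of the summit; it was -0.611 with a start window of 500 bp and -2.70 with 50 bp either side of the summit. The other differences from protein-coding peaks kept their sign but not their size. The rank percentile differed by -2.43 points with a start window of 500 bp, -5.41 with 2000 bp, -4.48 in the higher 0.5 of each replicate's top peaks and -17.2 over all deposited regions. The forkhead core differed by -2.58 with 500 bp, -4.68 with 2000 bp, -9.01 in the higher 0.5, -2.84 over all deposited regions, -2.75 with 50 bp either side and -11.0 with 250 bp. The DRE differed by -7.12 with 500 bp, -4.64 with 2000 bp, -4.06 over all deposited regions, -3.33 with 50 bp either side and -10.3 with 250 bp. The share of top peaks at noncoding starts only was 2.83% with a window of 500 bp, 5.05% with 2000 bp, 4.31% in the higher 0.5 of each replicate's top peaks, 4.62% over all deposited regions, 4.03% without pseudogenes and 3.04% where no protein-coding start lay within 2000 bp. The share of noncoding genes with a summit was 11.8% at 500 bp, 31.3% at 2000 bp, 11.9% with the stronger 4883 optimal peaks and 14.3% with peaks found in all replicates. The share found in all replicates was 50.1% with a match of 50 bp, 75.2% by interval overlap, 87.1% against all deposited regions, 95.1% among the stronger 4883 peaks, and 71.6% to 77.5% when 1 replicate was left out. Noncoding-only peaks numbered 272 with a window of 500 bp, 500 with 2000 bp and 297 where no protein-coding start lay within 2000 bp. The stronger 4883 peaks held 203 noncoding-only peaks, with a median signal of 566 and 54.7% upstream, and the upstream share was 55.1% at a window of 500 bp. The forkhead core stood at 19.2% of summits within 50 bp and 54.7% within 250 bp. Causes of these moves were not tested. The alternative windows held more or fewer bases, and the alternative lists more or fewer peaks.

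Leaving out 1 replicate gave differences from protein-coding peaks of -6.08 to -5.54 points for the DRE, -6.62 to -5.01 for the forkhead core, -1.45 to -1.17 for GC content and -5.03 to -0.683 for the rank percentile. No paired analysis was possible because the samples form 1 group with no second group to pair them with; kinds of peak were compared within each replicate. With 3 replicates and no input list analysed, signal over background could not be assessed, and peaks at repeated gene copies depend on read placement that was not examined.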
